A study of Drosophila melanogaster with 14 samples.

Results

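The binding sites of Yorkie (Yki) in Drosophila melanogaster embryos were compared with its sites in wing imaginal discs. The members were all peaks of both Yki lists, 3749 from embryos and 6491 from wing discs, which make 10240 of the 29537 peaks in the 5 deposited lists of the series. A peak is a stretch of the genome where fragments recovered with an antibody pile up after chromatin immunoprecipitation and sequencing (ChIP-seq). Embryos were whole and 8 to 16 hours old, so all tissues and a window of development were mixed, and 3 Yki libraries went into 1 list. Wing discs, the larval epithelia that give rise to the adult wing and part of the thorax, were dissected from third-instar larvae, and the labels name 1 Yki library. Both tissues came from the Iso1 strain, and neither carried a stated transgene or treatment. Input chromatin without antibody was sequenced as 1 embryo library and 2 wing disc libraries, whose values were not analysed here.

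Yki is the transcriptional coactivator at the end of the Hippo pathway. When the kinase Warts phosphorylates Yki, it is held in the cytoplasm; when the pathway is off, Yki enters the nucleus and switches on genes for growth, division and survival. Yki has no DNA-binding domain of its own and reaches DNA through partners, the best known being the TEAD-family protein Scalloped. In wing discs the pathway is known for setting organ size. GAGA factor (GAF), a protein that binds GA-rich DNA and helps keep chromatin accessible, and trimethylation of histone H3 at lysine 4 (H3K4me3), a mark of active promoters, were mapped in the same study and serve here as readouts that took no part in defining the classes of Yki peaks.

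The peak lists had some features in common. In all 5, no peak was narrower than 200 bp, no peaks of 1 list overlapped, and the closest neighbours lay 51 bp apart. The median width was 438 bp in the Yki embryo list and 418 bp in the Yki wing disc list, which covered 2.11 and 3.53 Mb. List length moves with depth and calling threshold, neither of which is given in these sources, so the longer wing disc list does not show more binding. With 1 list per tissue there is no replicate spread and no test across samples. Peaks are not replicates: the 95% intervals below (Wilson intervals for shares, Newcombe intervals for differences of shares, order-statistic intervals for medians) cover counting error only. In tissue as mixed as whole embryos, binding in few cells and weak binding in many cannot be told apart.

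Embryo peaks were found in the wing disc list more often than the reverse, and both shares depended on how much overlap was asked for. With at least 1 bp in common counted as shared, 2480 of 3749 embryo peaks were shared (66.2%, interval 64.6 to 67.6), which left 1269 embryo-only peaks. Of the wing disc peaks, 2515 of 6491 were shared (38.7%, 37.6 to 39.9), which left 3976 wing-only peaks. For comparison, the GAF lists, whose lengths were close to each other, shared 59.2% of embryo and 61.1% of wing disc peaks. With an overlap of at least 50% of both widths, the Yki shares were 42.0% (40.4 to 43.6) and 24.2% (23.2 to 25.3). With only the 3749 top-scoring wing disc peaks kept, so that the lists had equal length, they were 55.1% and 53.8%. Since nearly as many peaks of either list are shared, equal lengths bring the shares close to each other by arithmetic.

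Most shared peaks met a single partner. Of the shared embryo peaks, 2312 overlapped 1 wing disc peak, 149 overlapped 2 and 19 overlapped 3. Of the shared wing disc peaks, 2374 overlapped 1 embryo peak, 130 overlapped 2 and 11 overlapped 3. Joining all overlapping Yki peaks gave 7573 sites, of which 2328 (30.7%) held peaks of both tissues. Among the peaks with 3 partners, the embryo peaks on 2L from 8542095 to 8544497 (2403 bp) and from 19362035 to 19363271 (1237 bp) each spanned 3 wing disc peaks. The wing disc peaks on 2L from 221559 to 225199 (3641 bp) and from 5977167 to 5981383 (4217 bp) each spanned 3 embryo peaks. All 4 of these regions overlapped GAF peaks of both tissues and an embryo H3K4me3 peak. Such overlaps were frequent among wide shared peaks in general. In the widest of 4 equal width classes, 89.7% of shared embryo and 90.8% of shared wing disc peaks overlapped GAF of the same tissue. Embryo H3K4me3 overlapped 66.9 and 73.2% of them. Positions are on the dm3 build, counted from 1, and the genes there were not analysed here.

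Where a Yki peak recurred, its centre lay close to the centre of its partner, as pairing by overlap in part requires. In the 2048 one-to-one pairs, in which both peaks overlapped each other and no other peak of these lists, the midpoints were a median of 81.75 bp apart (interval 77 to 85.5, quartiles 36.5 and 157.5). The offset was at most 50 bp in 693 pairs (33.8%), at most 100 bp in 1193 (58.3%), at most 200 bp in 1682 (82.1%) and at most 500 bp in 2004 (97.9%). The largest offset was 1238 bp. Because the pairs were chosen by overlap, an offset cannot exceed the mean width of its pair. Median widths in the pairs were 514 bp in embryos and 593 bp in wing discs. Offsets above 500 bp were thus possible in the wider pairs, those with a mean width above 500 bp, and occurred in 44. The offset that overlap alone would give was not computed. Library fragments were selected near 225 bp, so most offsets were below the length of 1 fragment. The offset had no side: the wing disc midpoint was at the higher coordinate in 1015 pairs and at the lower in 1028, with a median signed offset of -0.5 bp (-7.5 to 5).

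The size of the offset had no order by score and was greatest for the widest embryo peaks. Across 4 equal classes of the pairs by wing disc score, from the highest to the lowest, the median offset was 82.5, 83, 78 and 83.25 bp, although the median wing disc width went from 921 to 327 bp. Across 4 classes by embryo width, from 271 to 993 bp at the median, it was 82.25 (70.5 to 89.5), 70 (63 to 81.5), 79.25 (70 to 89) and 91 bp (84 to 102.5), with no overlap between the intervals of the second and the widest class. It was 90 bp (83.5 to 99.5) in the 1057 pairs with H3K4me3 under both peaks and 65.5 bp (59.5 to 71.5) in the 847 pairs with H3K4me3 under neither, and the former pairs were also wider (median 553 against 482 bp in embryos and 695 against 462 bp in wing discs). With GAF of the same tissue under both peaks the median was 78.5 bp (1481 pairs), and with GAF under neither it was 85.5 bp (330 pairs), with overlapping intervals of 72.5 to 84.5 and 70 to 98.5.

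**Figure D1:**
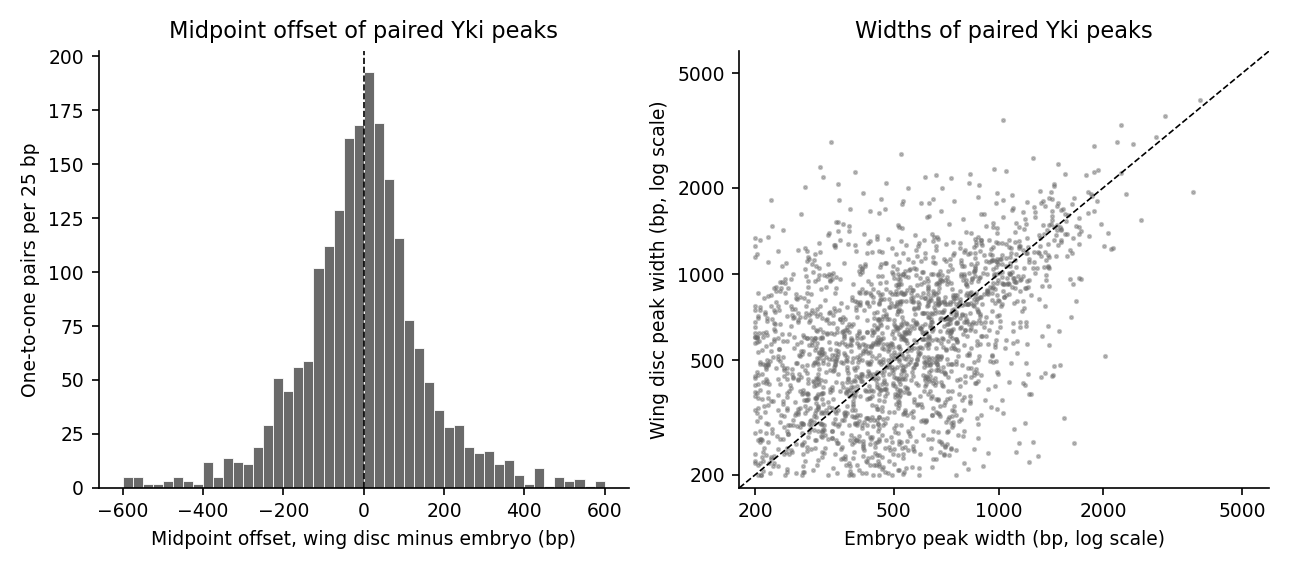
Left, midpoint offset of the 2048 one-to-one Yki pairs in bp, as a count per 25 bp, within 600 bp of 0. Right, width of the embryo peak against width of the wing disc peak in each pair, both on log scales, with the line of equal width; offsets centre on 0, and widths scatter widely around the line.

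The widths of paired peaks were only loosely related. The median width was 514 bp in embryos and 593 bp in wing discs, and the wing disc peak was the wider in 1190 pairs (58.1%). The median ratio of wing disc to embryo width was 1.11 (quartiles 0.800 and 1.61), and Spearman's rho of the widths was 0.42 over the 2048 pairs, given as a description. The embryo peak lay inside the wing disc peak in 680 pairs (33.2%), the reverse held in 510 (24.9%), and in 858 (41.9%) each peak had an edge outside the other. The shared stretch made up a median of 61.7% of the joint span (quartiles 44.5 and 76.9%).

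Shared peaks were wider than tissue-only peaks in both lists, and in wing discs they ranked higher by score. In embryos the median width was 520 bp for shared peaks (509 to 533) and 336 bp for embryo-only peaks (326 to 346). In wing discs it was 593 bp (573 to 610) and 349 bp (341 to 356). Wide peaks meet other peaks more readily, so these widths describe the classes and are no separate result about binding. Tissue-only peaks of the lists resembled each other in width: their quartiles were 263 and 460 bp in embryos and 259 and 510 bp in wing discs. None was wider than 1833 bp in embryos or 2203 bp in wing discs, against 5716 and 4907 bp among shared peaks.

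The share of peaks found in the other tissue climbed with width. In embryos, 47.9% (44.7 to 51.1) of the narrowest of 4 equal width classes, with peaks of 200 to 299 bp, and 88.2% (86.0 to 90.1) of the widest, with peaks of 677 to 5716 bp, were shared. In wing discs the same shares were 19.3% (17.5 to 21.3) and 66.8% (64.5 to 69.0). By score, used as a rank only because no source states its scale, 83.6% (80.6 to 86.3) of the top 10% of wing disc peaks and 13.1% (10.7 to 15.9) of the bottom 10% were shared. The median rank, in percent of the list with the highest score first, was 27.0 for shared and 63.2 for wing-only peaks. Of the 100 highest scores, 94 were shared, and of the 1000 highest, 808, with equal scores ordered by position. Score and width moved together, from a median of 960 bp in the top 10% to 251 bp in the bottom 10%.

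**Figure D2:**
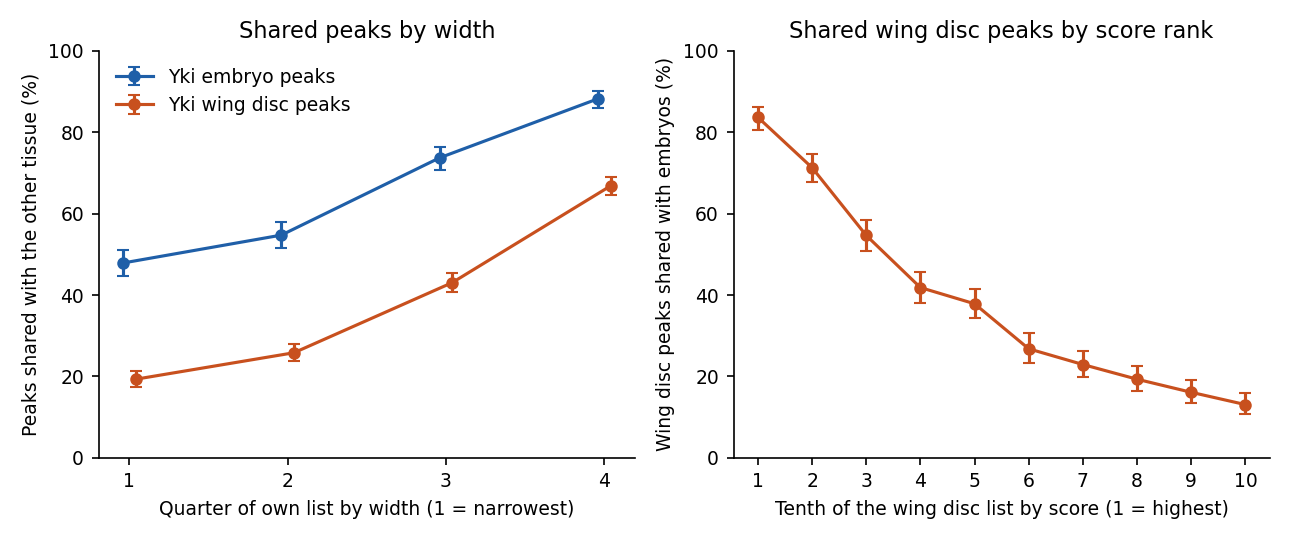
Left, percent of Yki peaks shared with the other tissue in 4 equal classes of each list's own widths. Right, percent of wing disc peaks shared with embryos in 10 classes of score rank; bars are 95% Wilson intervals, and shares lie between 13.1 and 88.2%.

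The wing disc peaks with the highest scores were nearly all present in embryos. The shared peak with the highest score lay on 3L from 15129423 to 15130408 (986 bp, rank 1), over a GAF peak of wing discs, an embryo H3K4me3 peak and no GAF peak of embryos. The next shared peaks were on 2R from 15993663 to 15994358 (rank 3), on 3L from 17992397 to 17993236 (rank 4) and from 16581234 to 16581980 (rank 5), and on X from 5793162 to 5795091 (rank 6). All 5 lay on wing disc GAF peaks, and all but the 2R peak on embryo H3K4me3.

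The 5 wing-only peaks with the highest scores lay off embryo H3K4me3. The first, on 3L from 3248339 to 3249563 (1225 bp, rank 2), lay 316 bp from an embryo peak and so missed being shared by a short gap. The other 4 lay more than 10 kb from any Yki embryo peak, against a median of 7312.5 bp (upper quartile 18101) for all wing-only peaks. They lay on 3L from 21702748 to 21703689 (rank 13, gap 17956 bp), on X from 17455005 to 17456751 (rank 33, 16699 bp), and on 3R from 886329 to 887253 (rank 81, 23105 bp) and from 26083450 to 26085412 (rank 86, 10729 bp). All but the peak at 3L 21702748 lay on a wing disc GAF peak. The peaks at 3R 886329 and 3R 26083450 lay on a GAF peak of wing discs but not of embryos. Among all wing-only peaks in the top 10% by score, 81.0% lay on wing disc GAF and 18.1% on embryo H3K4me3.

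The widest embryo-only peaks on the main arms were on 3R from 7061976 to 7063808 (1833 bp, 5424 bp from the nearest wing disc peak), on 2L from 10646663 to 10648350 (1688 bp, gap 28909 bp), on 3L from 9119974 to 9121563 (1590 bp, gap 1193 bp), and on X from 1857810 to 1859276 (1467 bp, gap 5328 bp) and from 11737908 to 11739296 (1389 bp, gap 9521 bp). The 3R peak alone overlapped H3K4me3. The peaks at 3L 9119974 and X 1857810 lay on GAF peaks of both tissues, and the other 3 on none. Among all embryo-only peaks in the widest class (677 to 5716 bp), 75.7% lay on embryo GAF and 31.5% on H3K4me3.

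With 1 bp of overlap as the rule, most tissue-only peaks lay more than 1 kb from the other list. The gap, counted between facing edges, from an embryo-only peak to the nearest wing disc Yki peak was a median of 6225 bp (5453 to 7051; quartiles 1534 and 20359). From a wing-only peak to the nearest embryo peak it was 7312.5 bp (6930 to 7743; quartiles 2223 and 18101). Within 500 bp lay 174 embryo-only peaks (13.7%, 11.9 to 15.7) and 423 wing-only peaks (10.6%, 9.72 to 11.6), and within 10 kb 60.1 and 58.0%. The tails differed, with 88.4% (86.5 to 90.1) of embryo-only and 95.4% (94.7 to 96.0) of wing-only peaks within 50 kb. The embryo-only class includes 88 peaks on scaffolds outside the arms, where the wing disc list is nearly empty. The gap also moves with the length of the other list: at equal list length the embryo-only median was 9399 bp. With an overlap of at least 50% of both widths asked for, peaks that overlap by less count as tissue-only, and the medians were 537 bp (380 to 738) for embryo-only and 4409 bp (4000 to 4773) for wing-only peaks.

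The farthest peaks on the main arms lay at least 140400 bp from the other list. In embryos they were on 3L from 24021104 to 24021580 (gap 313038 bp), on 2R from 73825 to 74115 (284465 bp) and on 3L from 23118586 to 23119108 (245899 bp). In wing discs they were on 2R from 19091046 to 19091570 (162415 bp), on 3R from 27288816 to 27289115 (145339 bp) and on 2L from 17243187 to 17243584 (140400 bp). These wing disc peaks ranked 3861, 5620 and 4038 of 6491 by score, in the lower part of the list. The median rank of all wing-only peaks, 63.2% of the list, lay there too.

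**Figure D3:**
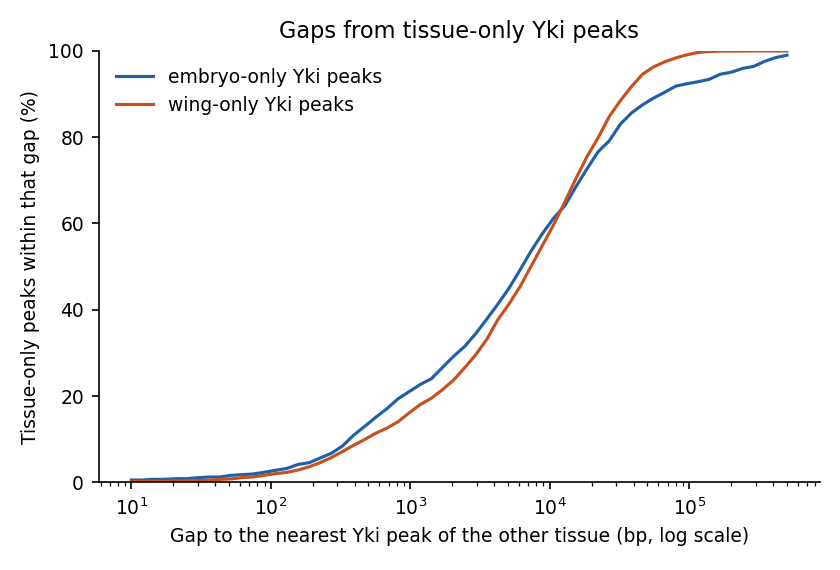
Percent of embryo-only and wing-only Yki peaks (vertical) whose gap to the nearest Yki peak of the other tissue is at most the distance on the horizontal log axis in bp. The curves stay close up to 10 kb, where they reach 60.1 and 58.0%, and part beyond it.

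Tissue-only peaks close to a peak of the other tissue carried H3K4me3 more often than distant ones. Among embryo-only peaks, 40.8% (33.8 to 48.2) of the 174 within 500 bp overlapped H3K4me3, 22.6% (19.4 to 26.1) of the 589 beyond that and up to 10 kb, and 12.5% (9.85 to 15.6) of the 506 farther away. Among wing-only peaks the values were 64.8% (60.1 to 69.2) of 423, 47.1% (44.8 to 49.3) of 1882 and 46.0% (43.6 to 48.4) of 1671. For GAF of the same tissue the embryo-only values were 51.1, 68.3 and 57.3%, with no order by distance, and the wing-only values 64.1, 48.8 and 46.6%. The embryo peak nearest to a wing-only peak was itself shared in 78.7, 77.7 and 70.4% of the 3 bands, and the wing disc peak nearest to an embryo-only peak in 50.6, 53.3 and 44.5%. These shares stand beside 66.2% of all embryo and 38.7% of all wing disc peaks. Median widths differed little between bands, from 300.5 to 344 bp in embryos and from 335 to 353 bp in wing discs.

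Wing-only peaks were less often on the X chromosome than shared wing disc peaks, while in embryos the interval of the same difference included 0. Over the arms 2L, 2R, 3L, 3R, 4 and X, 19.8% (18.3 to 21.4) of shared wing disc peaks and 13.6% (12.6 to 14.7) of wing-only peaks lay on X, a difference of 6.19 points (4.32 to 8.10). In embryos 19.6% (18.1 to 21.2) of shared and 20.7% (18.5 to 23.2) of embryo-only peaks did, a difference of -1.12 points (-3.96 to 1.62). With sharing defined by Yki midpoints within 500 bp it was 0.176 points (-2.59 to 2.85). The interval left out 0 at equal list length (-4.23, -6.88 to -1.60) and between the widest 50% of embryo peaks and the top-scoring 50% of wing disc peaks (-6.21, -10.3 to -2.31). Seen from the other side, 47.9% (44.9 to 51.0) of wing disc peaks on X were shared, against 36.9% (35.6 to 38.2) on 2L, 2R, 3L and 3R together. The sexes in the samples are not given in the labels, and their part in this was not tested.

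Chromosome 3L held the lowest shares among the large arms. Of its embryo peaks 64.9% (61.4 to 68.3) and of its wing disc peaks 33.8% (31.4 to 36.3) were shared, against 71.0% (67.3 to 74.5) and 38.2% (35.5 to 41.1) on 2L. The intervals of 3L and 2L overlapped narrowly in both lists. On the small chromosome 4, which is rich in repeats and heterochromatin proteins, the order of the tissues was turned, with overlapping intervals. It held 62 embryo and 42 wing disc peaks, of which 20 each were shared, or 32.3% (22.0 to 44.6) of the embryo and 47.6% (33.4 to 62.3) of the wing disc peaks.

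Scaffolds outside the arms carried embryo peaks almost without a counterpart. The embryo list held 97 peaks there, 62 of them on Uextra, 9 on U and 26 on the heterochromatin scaffolds, and the wing disc list held 22. On Uextra, a collection of unplaced sequence, 1 of the 62 embryo peaks met the single wing disc peak present. The widest embryo-only peaks there lay from 158047 to 159229 (1183 bp), from 113954 to 115022 (1069 bp) and from 115076 to 115868 (793 bp), at least 279804 bp from that wing disc peak and on no GAF or H3K4me3 peak. Distances on Uextra follow the order in which its pieces were joined. On the heterochromatin scaffolds 8 of 26 embryo and 8 of 20 wing disc peaks were shared.

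**Figure D4:**
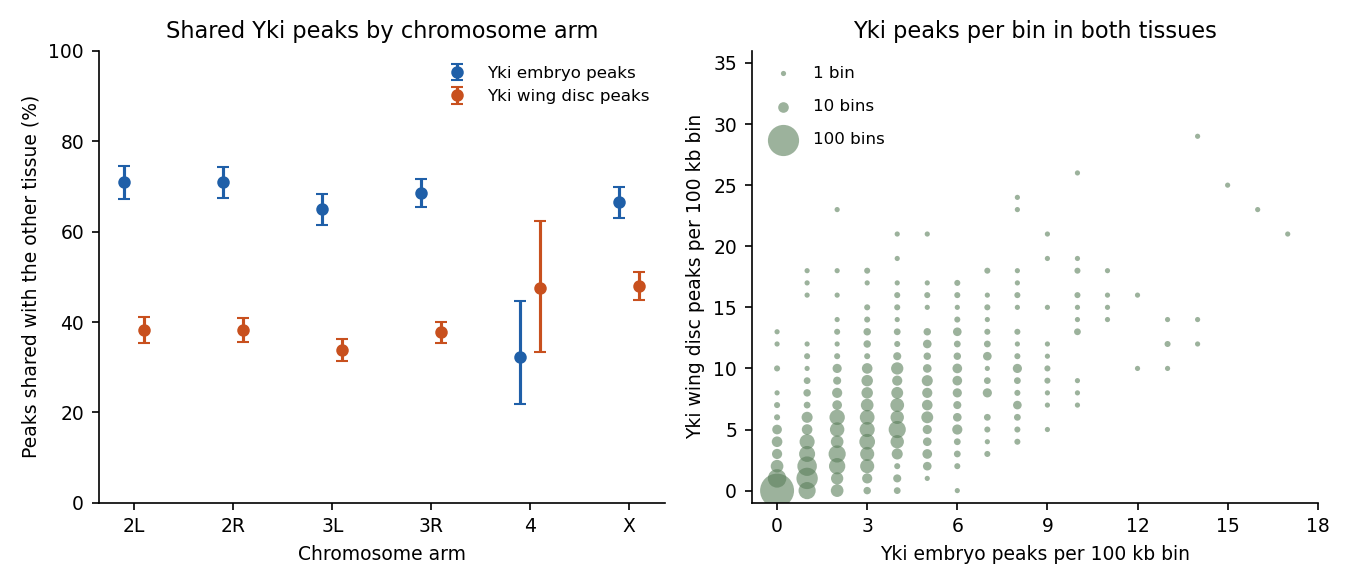
Left, percent of Yki peaks shared with the other tissue on each chromosome arm, with 95% Wilson intervals. Right, embryo against wing disc Yki peaks per 100 kb bin, with the area of each point showing the number of bins; chromosome 4 is the arm where the wing disc share is above the embryo share, with overlapping intervals, and counts in both tissues go up together.

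The tissues' Yki peaks gathered in largely the same stretches of the genome, while the counts of their tissue-only peaks were only weakly related. The 6 arms were cut into 1205 bins of 100 kb, of which 949 held peaks of both lists, 52 embryo peaks alone, 85 wing disc peaks alone and 119 neither. Only 89 embryo peaks and 250 wing disc peaks fell in bins without a peak of the other list. Spearman's rho of the counts was 0.69 (Pearson's r 0.67) between all embryo and all wing disc peaks, which have sites in common. It was 0.16 (r 0.09) between embryo-only and wing-only peaks, 0.49 (r 0.41) between wing-only and shared wing disc peaks, and 0.22 (r 0.22) between embryo-only and shared embryo peaks. Counts of other lists could be related about as closely. For wing-only Yki peaks rho was 0.66 with wing disc GAF and 0.64 with embryo H3K4me3 peaks. For embryo-only Yki peaks it was 0.45 with embryo GAF and 0.22 with embryo H3K4me3 peaks. All are descriptions over the same 1205 bins. Shared sites count in both lists for the value of 0.69, and taking them out can lower the value of 0.16. These values are therefore not like for like.

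Both lists had a like part of their peaks in their densest bins, although wing disc counts varied more between bins relative to their mean. The densest 10% of bins, 120 of them, held 28.4% of embryo and 28.2% of wing disc peaks, and 49 bins were in the densest 10% of both. By class, the densest 120 bins held 31.8% of shared embryo, 38.0% of embryo-only, 32.0% of shared wing disc and 32.2% of wing-only peaks. Embryo-only peaks were also the fewest, at 0.980 per bin, which by itself leaves more bins empty (46.5% of them). The variance of the counts over their mean was 2.28 for embryo and 3.98 for wing disc peaks, at 3.03 and 5.37 peaks per bin. By class it was 2.09 for shared embryo, 1.55 for embryo-only, 2.19 for shared wing disc and 3.33 for wing-only peaks. By this measure embryo-only peaks were the least uneven. Both measures move with the number of peaks per bin. At short range, 45.8% (43.8 to 47.7) of shared wing disc peaks and 47.2% (45.6 to 48.7) of wing-only peaks had another peak of their list within 1 kb, as did 32.0% (30.2 to 33.9) of shared embryo and 27.7% (25.3 to 30.3) of embryo-only peaks.

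Sharing was more frequent where the other tissue's peaks were dense. In the 198 bins with 1 embryo peak 22.0% (18.9 to 25.6) of wing disc peaks were shared, and in the 115 bins with 7 to 17 embryo peaks 51.6% (48.9 to 54.3). Of the embryo peaks, 47.7% (42.3 to 53.1) were shared in the 217 bins with 1 or 2 wing disc peaks and 78.9% (76.5 to 81.1) in the 210 bins with 10 to 29. More peaks in a bin give more partners to meet, and how much of this trend that makes up was not tested.

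The 3 bins with most shared embryo peaks were on 2R. From 7500001 to 7600000, 14 of 17 embryo peaks and 14 of 21 wing disc peaks were shared. From 9800001 to 9900000 the counts were 13 of 15 and 13 of 25, and from 6400001 to 6500000 they were 12 of 14 and 15 of 29. On 3R from 17400001 to 17500000, 11 of 16 embryo and 12 of 23 wing disc peaks were shared. On X from 1900001 to 2000000 all 11 embryo peaks and 10 of 15 wing disc peaks were.

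Some bins held many peaks of 1 tissue and few or none of the other. On 3L from 16100001 to 16200000, 21 of 23 wing disc peaks were wing-only, beside 2 embryo peaks, both shared. On X from 1500001 to 1600000, 18 wing disc peaks and 2 embryo peaks shared no site. On 2R from 7400001 to 7500000, 17 of 21 wing disc peaks were wing-only, next to the bin with most shared peaks. On 3L from 3100001 to 3200000 there were 17 of 18, and on 3R from 12000001 to 12100000 there were 17 of 26. In the order given, these bins held 9, 6, 3, 22 and 7 embryo H3K4me3 peaks. The bin on 2R from 19900001 to 20000000 held 13 wing disc peaks, 0 embryo Yki peaks, 0 embryo GAF peaks and 22 embryo H3K4me3 peaks. The bins on 3R from 1300001 to 1400000 and on 3L from 10900001 to 11000000 held 12 and 10 wing disc peaks and 0 embryo peaks, with 14 and 1 H3K4me3 peaks. For scale, the embryo H3K4me3 and GAF lists held 6499 and 6470 peaks, nearly all on the arms, which made 1205 bins.

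The highest count of embryo-only peaks in a bin was 8, and several bins tied at 6. Here and in the other lists of bins, the first by position are named where counts tie at the last place. On 3R from 9800001 to 9900000, 8 of 14 embryo peaks were embryo-only, among 12 wing disc peaks and 26 embryo GAF peaks. On 3R from 11200001 to 11300000, 7 embryo and 6 wing disc peaks shared no site, and on chromosome 4 from 400001 to 500000 the same held for 7 and 3 peaks. On 2L from 17700001 to 17800000, 6 embryo and 2 wing disc peaks shared none, and on 3L from 17900001 to 18000000, 6 of 13 embryo peaks were embryo-only. The bins with most embryo peaks and 0 wing disc Yki peaks were on 3L from 22900001 to 23000000 with 6, on 3L from 15300001 to 15400000 with 4 and on 3R from 15300001 to 15400000 with 4. These held 1, 1 and 0 H3K4me3 peaks and 9, 7 and 8 embryo GAF peaks, of 6499 and 6470 in the whole lists, against 1205 bins.

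H3K4me3, which took no part in defining the classes, set embryo-only Yki peaks apart from shared ones. In embryos 57.5% (55.5 to 59.4) of shared peaks and 21.0% (18.9 to 23.4) of embryo-only peaks overlapped an H3K4me3 peak, a difference of 36.5 points (33.4 to 39.4) beside 45.2% of all Yki embryo peaks. It was 18.9 points (15.7 to 22.0) where sharing needed an overlap of at least 50% of both widths. Over the 4 classes of Yki peak width, from the narrowest, it was 36.1, 30.4, 31.1 and 35.4 points, and all 4 intervals lay above 24. With Yki midpoints counted inside H3K4me3 peaks the shares were 36.7 and 11.1%.

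In wing discs the classes lay closer in their overlap with embryo H3K4me3, and the direction changed with settings and strata. It overlapped 58.1% (56.2 to 60.01) of shared and 48.5% (46.9 to 50.05) of wing-only peaks, 9.60 points apart (7.12 to 12.1), beside 52.2% of all Yki wing disc peaks. At equal list length the difference was 16.7 points, and among the top 50% of each list 17.0. With Yki midpoints inside H3K4me3 peaks, a setting chosen after the data were seen, the shares were 42.0 and 42.5% (-0.427 points, -2.89 to 2.04). In the narrowest class of wing disc peaks 31.6% of shared and 48.8% of wing-only peaks overlapped H3K4me3 (-17.1 points, -22.7 to -11.2), and in the widest class 73.2 and 43.0% (30.2 points, 25.2 to 35.05). The order likewise turned with score. In the top 10% by score 63.3% (59.2 to 67.3) of shared and 18.1% (11.9 to 26.5) of wing-only peaks overlapped H3K4me3, and in the bottom 10% 37.6% (28.1 to 48.3) and 48.5% (44.4 to 52.6). In 4 score classes, from the highest, the differences were 31.3 (26.0 to 36.3), 9.91 (5.01 to 14.7), -5.80 (-11.6 to 0.00994) and -8.76 points (-15.2 to -2.09). Wing disc H3K4me3 was not analysed here.

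The tissue-only classes thus differed from each other at embryo H3K4me3 peaks. Wing-only peaks overlapped them 27.5 points more often than embryo-only peaks (24.7 to 30.1), and 31.3 points more often by midpoints (28.9 to 33.6). This did not hold for the top-scoring wing-only peaks. In the highest of 10 classes of score rank 18.1% (11.9 to 26.5) overlapped H3K4me3, beside 21.0% (18.9 to 23.4) of all embryo-only peaks. In 4 score classes, from the highest, the wing-only shares were 34.0, 47.6, 53.7 and 49.3%. Embryo peaks have no score, and the contrast was not tested at equal list length. The shared peaks of both lists, which are largely the same sites, gave 57.5 and 58.1%.

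GAF of the same tissue was found under shared peaks more often than under tissue-only peaks, by a small margin in embryos and a wide one in wing discs. In embryos 72.5% (70.7 to 74.3) of shared and 61.5% (58.8 to 64.2) of embryo-only peaks overlapped a GAF embryo peak, 11 points apart (7.81 to 14.2), beside 68.8% of all. In wing discs 84.3% (82.9 to 85.7) of shared and 49.5% (47.9 to 51.1) of wing-only peaks overlapped a GAF wing disc peak, 34.8 points apart (32.7 to 36.9), beside 63.0% of all. Within width classes the embryo difference was above 0 by its interval in the widest alone: from the narrowest it was -7.85 (-14.2 to -1.44), 2.72 (-3.48 to 8.93), 2.36 (-3.69 to 8.89) and 14.1 points (6.68 to 23.0). On 2L, 2R, 3L and 3R alone it was 6.28 points (2.64 to 9.99). The wing disc difference was 31.2, 35.01, 27.6 and 16.0 points over the same classes, and over 4 classes of score rank, from the highest, 21.2, 26.7, 27.9 and 28.0 points, each with an interval above 0.

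GAF of the other tissue was less frequent under tissue-only than under shared Yki peaks, but was not absent from them. Of embryo-only Yki peaks 49.3% (46.6 to 52.1) lay on a wing disc GAF peak, against 83.9% (82.4 to 85.3) of shared embryo peaks. At the embryo-only sites among these, GAF was listed in wing discs and Yki was not. Of wing-only Yki peaks 23.5% (22.2 to 24.8) lay on an embryo GAF peak, against 74.5% (72.7 to 76.1) of shared wing disc peaks. Neither GAF of the same tissue nor H3K4me3 was found at 27.3% (24.9 to 29.8) of embryo-only and 21.0% (19.7 to 22.2) of wing-only peaks, against 6.85% (5.93 to 7.92) of shared embryo and 4.53% (3.79 to 5.42) of shared wing disc peaks. Embryo-only peaks most often had GAF without H3K4me3 (51.7%, 48.9 to 54.4). Wing-only peaks were spread over all 4 combinations, with GAF alone at 30.6%, H3K4me3 alone at 29.6%, neither at 21.0% and both at 18.9%. Wider peaks meet other lists more readily, and shared peaks were the wider.

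**Figure D5:**
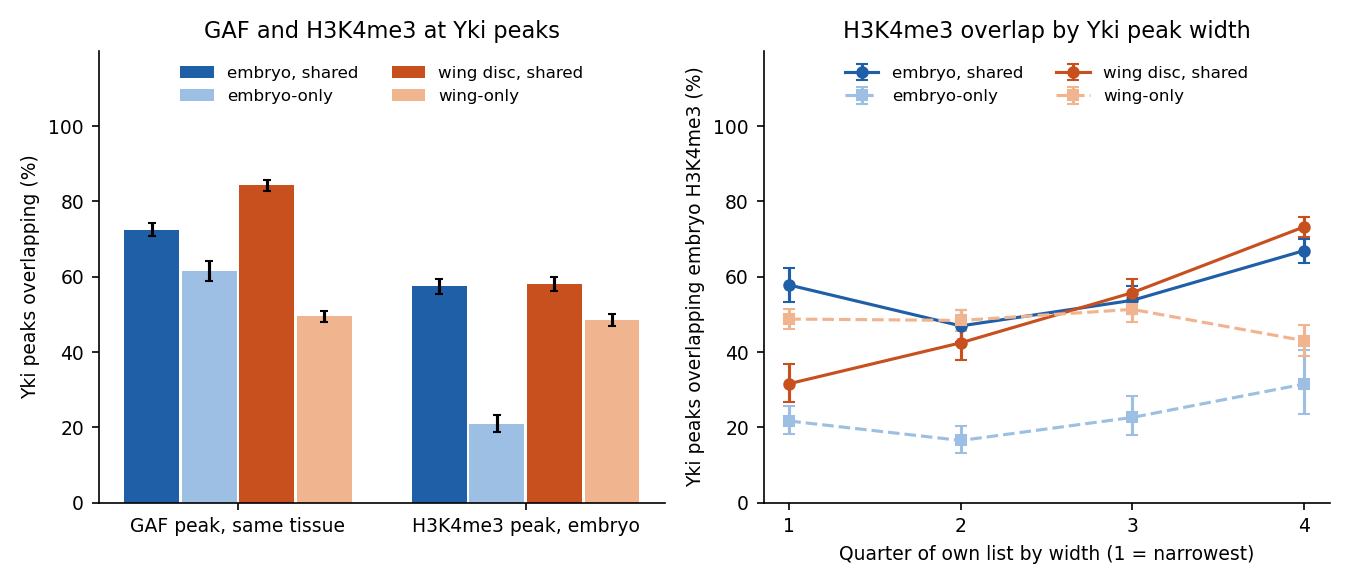
Left, percent of Yki peaks of each class that overlap a GAF peak of the same tissue or an embryo H3K4me3 peak. Right, the H3K4me3 percentages in 4 equal classes of each list's Yki peak widths; bars are 95% Wilson intervals, and embryo-only peaks lie below the other classes in each class.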

How the data were processed

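Per the labels' protocols, ChIP-seq libraries were made by tagmentation with 12 cycles of PCR. Per the submitters' processing notes, CASAVA 1.7.0, BWA and Bowtie were used and positions are on dm3. The authors deposited 1 peak list per antibody and tissue with starts and ends, and the deposited wing disc lists add names beginning with MACS and a score, computed by the authors, for every peak. Not given in the sources used here: the embryo caller, thresholds, the merging of replicates and the use of input. Depth is unknown. Intervals cover counting error only.

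Overlaps of at least 1 bp, gaps, midpoints and 100 kb bins (by midpoint) were computed with Python 3.11.15, numpy 2.4.6, scipy 1.17.1 and statsmodels 0.14.6, and figures with matplotlib 3.10.9. The overlap and interval functions were tested on simulated lists. Differences of medians combine order-statistic intervals by square-and-add. No p-value was computed. Named regions are those ranking first by score, width, gap, number of partners or count per bin. The classes, measures and this rule were chosen with earlier results of these data known. The gene table at hand is on another build, so peaks were not assigned to genes and no sequence is shown.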

Additional observations from a re-analysis of the deposited data

Results flagged for a closer look

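For 3 measures the contrast of shared with tissue-only Yki peaks differed between the tissues, by the interval of the difference of both contrasts. That interval takes the lists as independent, although they share sites, and covers counting error only. For the share on X the wing disc contrast exceeded the embryo contrast by 7.31 points (3.99 to 10.7), from -1.12 in embryos to 6.19 in wing discs. For overlap with GAF of the same tissue it exceeded it by 23.8 points (19.98 to 27.6), from 11 to 34.8. For overlap with embryo H3K4me3 the wing disc contrast was lower (-26.9 points, -30.7 to -22.9), at 9.60 against 36.5.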

How the results depend on the processing

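Of 72 alternative values, 27 stayed within the interval of the reported value, and 45 moved outside it. The direction changed in 2: the H3K4me3 difference in wing discs was -0.427 points with midpoints inside H3K4me3 peaks, and the X difference in embryos, whose interval included 0, went from -1.12 to 0.176 points with Yki midpoints within 500 bp. The former setting, chosen after the data were seen, gave 25.6 points for H3K4me3 in embryos and 38.1 for GAF in wing discs; midpoints within 500 bp of those peaks gave 33.1 and 30.1. A reciprocal overlap of 50% gave shares of 42.0% (embryo) and 24.2% (wing disc), a width difference of 222 bp in embryos, an offset of 65 bp, gaps of 537 and 4409 bp, GAF differences of 16.2 and 30.2 points and H3K4me3 differences of 18.9 and 6.64. Yki midpoints within 500 bp gave 63.7 and 37.2%, widths 165 and 219 bp apart, an embryo-only gap of 5304 bp, a score rank difference of -33.8 percent of the list (-36.2 as reported), 32.3 points for GAF in wing discs and 32.0 for H3K4me3 in embryos. Counting gaps up to 500 bp as shared gave 70.8 and 45.3%. The top 50% of each list gave 40.0% of wing disc peaks, an X difference of -6.21 points in embryos, a width difference of 155 bp in embryos, an offset of 91 bp, 25.8 points for GAF in wing discs, and 31.7 (embryo) and 17.0 (wing disc) for H3K4me3. The wing disc list cut to 3749 peaks gave 55.1 and 53.8%, an X difference of -4.23 in embryos, a width difference of 209 bp in wing discs, an embryo-only gap of 9399 bp, a rank difference of -30.1, and 29.1 points for GAF and 16.7 for H3K4me3 in wing discs. Arms 2L, 2R, 3L and 3R alone gave 68.7 and 36.9%, an embryo-only gap of 5315.5 bp and 6.28 points for GAF in embryos. The bin correlation was 0.60 without empty bins. The causes of these shifts were not tested. No paired analysis was possible because each tissue has 1 list, which carries no replicate numbers; for the same reason no replicate could be left out.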

Other observations

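Under shared Yki peaks the wing disc GAF peaks also ranked high in their own list. By the authors' GAF score, in percent of the GAF wing disc list with the highest score first, the best GAF peak under a shared wing disc Yki peak had a median rank of 13.3 (12.6 to 14.3, 2121 peaks), against 40.2 (38.6 to 42.1, 1968 peaks) under wing-only Yki peaks. Embryo-only Yki peaks that lay on a wing disc GAF peak met GAF peaks with a median rank of 35.9 (33.2 to 38.5, 626 peaks), and shared embryo peaks met peaks with a median rank of 13.8 (13.0 to 14.7, 2081 peaks). Wide Yki peaks can meet several GAF peaks, of which the best was taken, and this was not corrected for width.

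Counted from the histone mark, 1337 of the embryo H3K4me3 peaks (20.6%) carried Yki peaks of both tissues, 1579 (24.3%) Yki of wing discs alone, 240 (3.69%) Yki of embryos alone and 3343 (51.4%) neither. Their median widths were 1678, 1711, 1344.5 and 794 bp in that order, and wide H3K4me3 peaks meet other peaks more readily.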
